A study of Rattus norvegicus with 8 samples.

Results

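Splicing regulators and heterogeneous nuclear ribonucleoprotein (hnRNP) genes were followed in cultures of oligodendrocyte precursor cells (OPCs) from the rat, dividing glia that give rise to myelinating oligodendrocytes. Members were chosen by gene symbol alone, from 10 families: the SR proteins (Srsf), the hnRNPs (Hnrnp), Rbfox, Celf, Mbnl, Elavl, Ptbp, Nova, quaking and Msi. The rule found 54 of the 32883 rows of the deposited table, under 53 symbols, since Hnrnpa3 stands in 2 rows. No row carried the quaking symbol, and quaking was not analysed here. Of the 54 rows, 49 had a mean of at least 1 FPKM (fragments per kilobase of transcript, scaled to the library's total) over the 8 libraries and were tested. The remaining 5 included Srsf12, with a mean of 0.700 FPKM. Mbnl3 and the Hnrnpa3 row ENSRNOG00000027006 were each above 0 in at most 2 libraries. Srsf8 and Hnrnpab were listed at 0 in all 8. A listed 0 can be a failed estimate, and it is not read here as absence of expression, least of all for Hnrnpab, which is abundant in many tissues.

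RNA was sequenced from 4 male and 4 female cultures of Sprague Dawley rat cerebral cortex, numbered 1 to 4 within each sex. The animals were 1 to 2 days old, and no other treatment or genotype separates the groups. Mixed glia were kept in medium with 20% serum, the non-adherent cells were taken as OPCs, and these were grown for 4 to 5 days in medium with 2% B27 supplement and with PDGF and FGF at 10 ng/ml each. Nothing in the labels says that cultures of one sex came from separate litters, so p-values cover no more than the spread among these libraries, and that spread may be technical.

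The absolute depth is unknown. Steps between low values gave depths relative to male 1 of 0.303 in female 1 to 0.981 in female 3. OPC markers were abundant in every library, with 5 of 5 tested and a summed level of 1597 to 1824 FPKM in male and 1934 to 2007 FPKM in female cultures. All 5 had lower means in male cultures, 4 of them without overlap, and 2 were called towards female cultures by limma. Microglial markers summed to 31.1 to 43.4 FPKM in male and 123 to 143 FPKM in female cultures. All 7 tested had female cultures above male ones without overlap, and 6 of them passed the adjusted threshold of the fit over all genes (limma). Neuron markers summed to 383 to 421 FPKM in male and 343 to 464 FPKM in female cultures, with Slc17a7 at 0 in all libraries. Of the 14 tested, 10 had positive male minus female differences, 6 of which passed that threshold. Astrocyte markers summed to 173 to 196 FPKM over all 8 libraries, and endothelial and fibroblast markers to at most 0.0355 FPKM. Of the latter, Pecam1 had no row, and Cldn5, Col1a2 and Dcn were listed at 0 in all 8 libraries, which can be a failed estimate. Of 20 listed cell cycle genes (G1/S and replication), 20 had positive differences and 19 passed that threshold. The part of these other differences in the results that follow was not tested. In such bulk samples, fewer cells of a type and less RNA per cell cannot be told apart.

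Splicing removes introns from a primary transcript, and most mammalian genes can be spliced in more than one way. SR proteins bind exons and generally favour their inclusion, while many hnRNPs bind pre-mRNA and often favour skipping. The smaller families act on narrower sets of exons. Several of them have a member found in most cells and others found mainly in neurons. Ptbp1, for example, is a repressor of neuronal exons that gives way to Ptbp2 when neurons form, and Elavl1 is broadly expressed whereas Elavl2, Elavl3 and Elavl4 mark neurons.

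By summed FPKM the hnRNP genes were the most abundant of these families and Rbfox the least. By mean FPKM over 8 libraries, the median tested member stood at percentile 82.5 of the 11263 tested genes, and 17 of the 49 were among the 1000 most abundant genes. Levels of the median member varied less between cultures than those of the median tested gene, but some members varied widely. The coefficient of variation over 8 libraries had a median of 10.7% for the 49 members and 15.8% for all tested genes. Above a mean of 10 FPKM it was 9.24% for 42 members and 11.8% for all. Single members ran from 3.78% for Hnrnpm to 45.1% for Celf6, with 42.2% for Celf4 and 34.1% for Rbfox1.

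**Figure D1:**
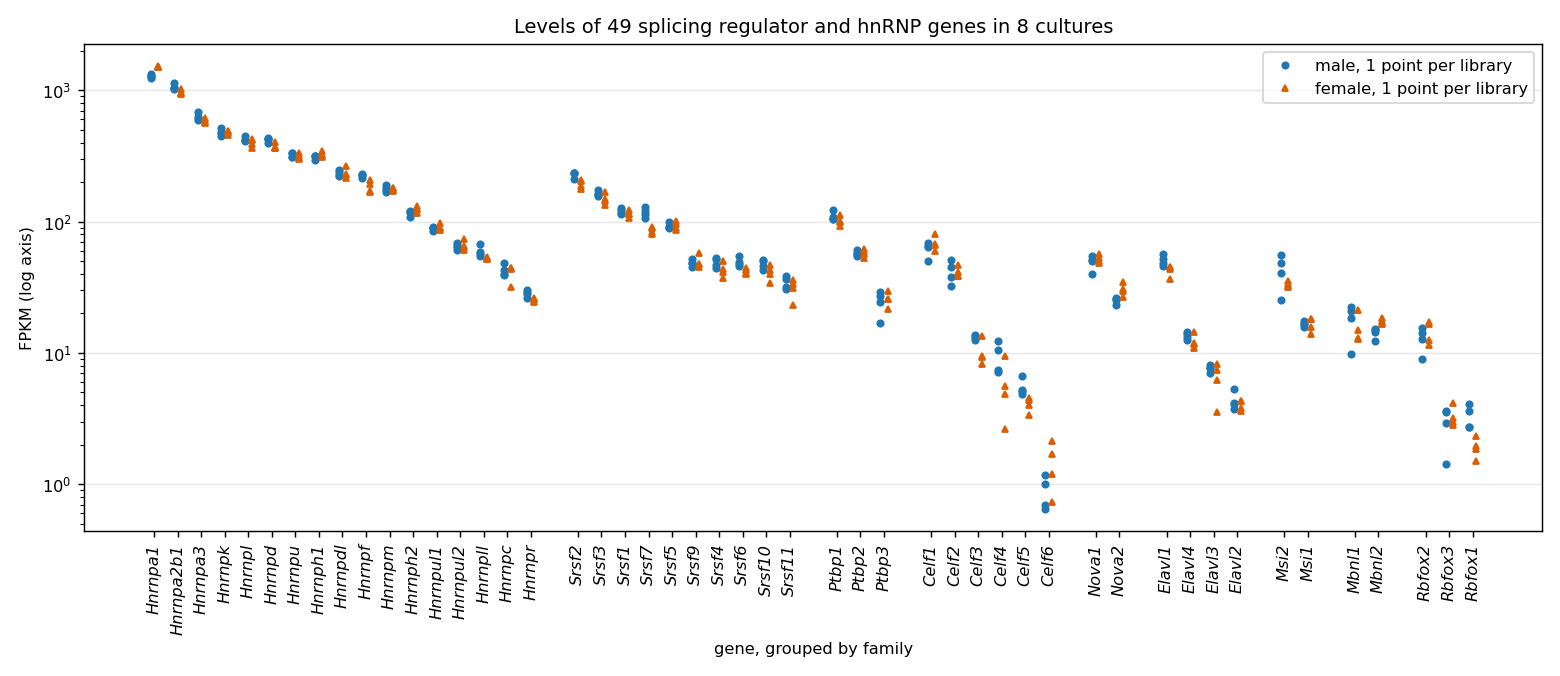
FPKM (log axis) of the 49 tested genes, grouped by family, with 1 point per library and circles for male and triangles for female cultures. Hnrnpa1 lies highest and Celf6 lowest, and for most genes the points of the 2 sexes overlap.

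Male and female cultures differed at 2 of the 49 members. Srsf7 was higher in male and Hnrnpa1 in female cultures (limma-trend on log2(FPKM + 1), Benjamini-Hochberg adjusted p under 0.05 over all tested genes). With quantile normalization 3 members were called, all towards male cultures (Srsf7, Srsf2 and Hnrnpf). The main share, 4.08%, stands beside 6.04% for all 11263 tested genes, with 3.14% towards male and 2.89% towards female cultures. At an unadjusted p under 0.05 there were 14 members, 11 towards male and 3 towards female cultures, which is 28.6% beside 21.2% for all tested genes (11.3% and 9.94% by direction). For 12 members (24.5%) all libraries of one sex lay above all of the other, 9 with male and 3 with female above, against 14.0% of all tested genes (7.26% with male and 6.77% with female above). Leaving out male 2, male 3, male 4 or female 2 left 1 called member, and leaving out female 3 gave 4. The median log2 difference, male minus female, was 0.09 over members and -0.0038 over all genes. Of the 49 members 33 (67.3%) were positive against 49.3% of all genes. The medians depended on scaling. They were 0.04 over members and -0.0084 over all genes with quantile normalization, and 0.07 and -0.02 with upper quartile scaling. No member reached a 2-fold difference, a log2 difference of 1, and the largest was 0.71 for Celf4, which was not called. The Celf4 difference was 0.45 without female 2 and 0.57 without male 1, and Rbfox1 was then larger, at 0.55 and 0.62. Differences of 20 members were under 0.1 on the log2 scale.

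**Figure D2:**
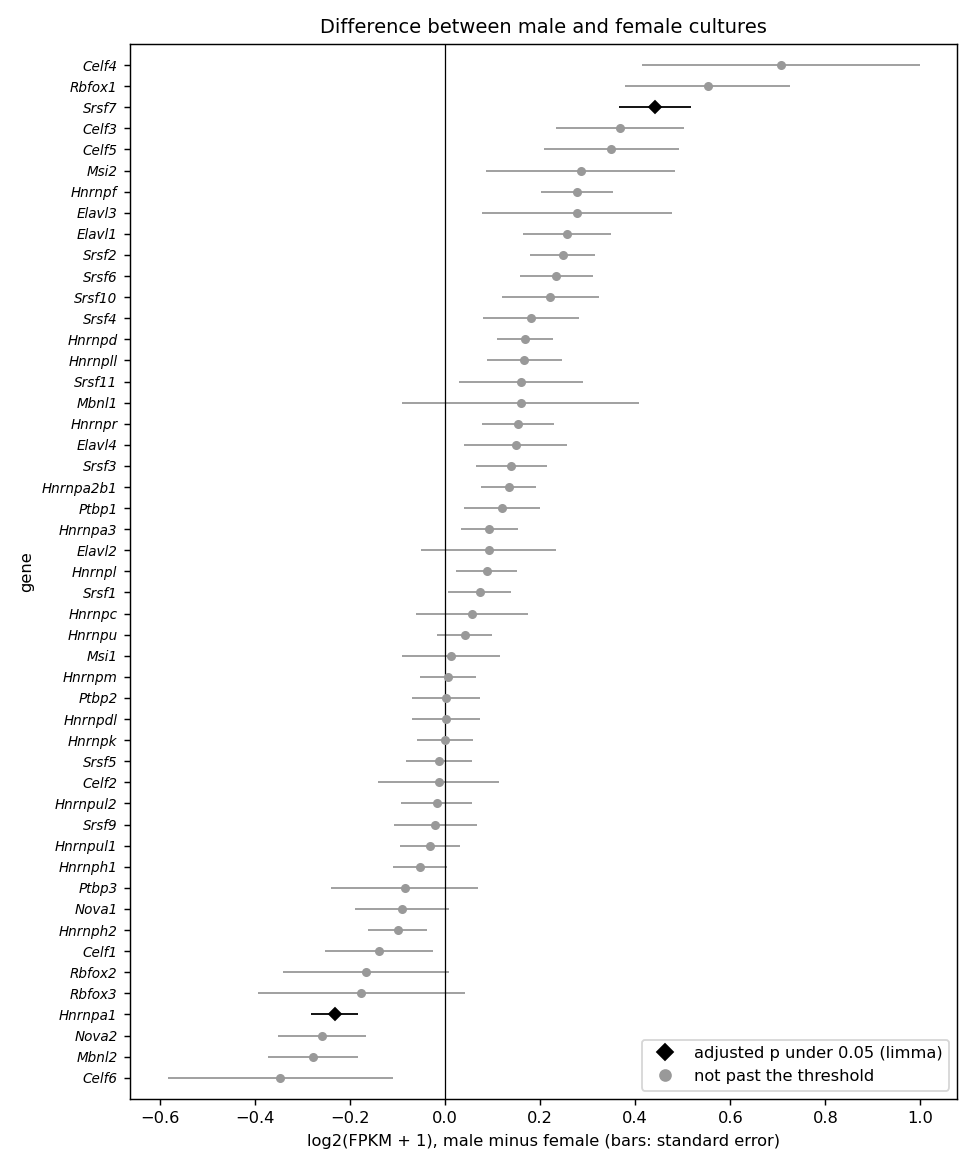
Log2(FPKM + 1) in male minus female cultures for the 49 tested genes, with bars for the standard error and diamonds for genes past the adjusted threshold. Srsf7 at 0.44 and Hnrnpa1 at -0.23 are the called genes, and Celf4 at 0.71 has the largest difference and a standard error of 0.29.

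Srsf7 (ENSRNOG00000027360) encodes an SR protein with a zinc knuckle that also takes part in mRNA export. It was at 106, 129, 114 and 120.3 FPKM in male cultures 1 to 4 and at 81.1, 90.3, 89.1 and 83.3 FPKM in female cultures 1 to 4. Every male culture lay above every female one. The means were 117 ± 10.00 (SD, n = 4) and 86.0 ± 4.45 FPKM, a log2 difference of 0.44 ± 0.08 (standard error, limma adjusted p = 0.00742).

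Hnrnpa1 (ENSRNOG00000036839), the gene of an abundant shuttling hnRNP that often represses exons, was at 1335, 1290.3, 1248 and 1278 FPKM in male cultures 1 to 4. In female cultures 1 to 4 it was at 1513, 1516, 1528 and 1494 FPKM. Every female culture lay above every male one, and the 4 female values were close together. The means were 1288 ± 36.1 and 1513 ± 13.8 FPKM, a log2 difference of -0.23 ± 0.05 (limma adjusted p = 0.0212). It missed the threshold when male 2, male 3, male 4, female 2 or female 4 was left out (limma adjusted p of 0.0602 to 0.0841) and with quantile normalization (adjusted p = 0.0587). Copies of this gene elsewhere in the genome can share its reads, and how the counting treated them is not given in the sources used here.

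The promoter stretches of these genes are shown because they are the members that differed between the sexes, in opposite directions. They are the 250 bases before the annotated start, from the RefSeq promoter table of build GRCr8, read 5′ to 3′ on the gene's strand, which is the plus strand for both. Srsf7 lies at chr6:20563802-20564051 and Hnrnpa1 at chr7:136253868-136254117. Capitals mark CCAAT boxes (CCAAT, or ATTGG on the other strand) and GC boxes (GGGCGG, or CCGCCC), which do not overlap here.
Srsf7: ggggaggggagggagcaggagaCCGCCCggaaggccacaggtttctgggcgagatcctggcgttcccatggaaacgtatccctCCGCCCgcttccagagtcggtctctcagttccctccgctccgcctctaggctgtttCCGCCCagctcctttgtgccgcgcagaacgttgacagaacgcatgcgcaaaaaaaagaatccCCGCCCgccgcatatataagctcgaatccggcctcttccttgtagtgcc
Hnrnpa1: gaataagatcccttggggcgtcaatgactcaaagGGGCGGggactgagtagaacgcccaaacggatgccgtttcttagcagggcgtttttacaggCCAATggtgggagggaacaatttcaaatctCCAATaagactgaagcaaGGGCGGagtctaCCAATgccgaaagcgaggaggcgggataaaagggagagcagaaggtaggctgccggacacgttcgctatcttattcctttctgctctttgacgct
The Srsf7 stretch holds 4 GC boxes and no CCAAT box, and the Hnrnpa1 stretch 2 GC boxes and 3 CCAAT boxes. GC boxes were present in 30.5% of 33469 promoter stretches of this length, and in 33 of the 49 of tested members. CCAAT boxes were present in 34.0% of all and in 27 of the 49. Bases G and C made up 61.2% of the Srsf7 and 52.0% of the Hnrnpa1 stretch, and a median of 61.6% over the members and 51.2% over all. The 33469 stretches were not limited to tested genes, whereas the 49 members had passed the filter on FPKM. The shares are therefore not like for like, and no excess in the members is read from them. These matches describe the letters in the window and show no binding.

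Among the other SR protein genes no call was made, and 8 of the 10 tested Srsf genes had positive differences. Srsf2, which encodes an SR protein that stays in the nucleus, was at 236, 234, 235 and 213 FPKM in male cultures 1 to 4 and at 177, 202, 207 and 187 FPKM in female cultures 1 to 4. The sexes did not overlap, and the log2 difference of 0.25 ± 0.07 missed the threshold (limma adjusted p = 0.0583). It was called without female 3 (limma adjusted p = 0.0343) and with quantile normalization (0.0444). The call was also made with only genes of mean FPKM 5 or more (0.0478) and without both male 1 and female 3 (0.0466). The other 14 of 18 alternatives left Srsf2 uncalled, with a limma adjusted p of up to 0.158, reached when female 4 was dropped. Srsf3, the gene of the smallest SR protein, was at 162, 162, 173 and 156 FPKM in male and at 148, 168, 145 and 134 FPKM in female cultures, and these values overlapped (limma adjusted p = 0.323). Srsf6 was without overlap as well, at 49.3 ± 3.73 against 41.7 ± 2.07 FPKM (limma adjusted p = 0.104). The order Srsf2, Srsf3, Srsf1 held in 8 of 8 libraries. Srsf1, the founding member of the family, exceeded Srsf7 in 6 of 8, with ratios between 0.953 and 1.11 in male cultures and between 1.29 and 1.37 in female ones. Srsf7 exceeded Srsf5 in the 4 male cultures and in no female one. The other SR protein genes (Srsf1, Srsf4, Srsf5, Srsf9, Srsf10 and Srsf11), with means from 32.7 FPKM for Srsf11 to 117 FPKM for Srsf1, overlapped between the sexes. Their limma adjusted p ran from 0.24 for Srsf10 to 0.942 for Srsf5.

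Summed over the 10 tested Srsf genes, levels were 942, 968, 963 and 933 FPKM in male cultures 1 to 4 and 816, 867, 857 and 828 FPKM in female cultures 1 to 4, with every male sum above every female one. The means were 952 ± 17.0 and 842 ± 24.4 FPKM. This sum was looked at after the values of its genes were seen and was not tested. The sum over the 17 tested Hnrnp genes was 5971 ± 153 FPKM in male and 5954 ± 170 FPKM in female cultures, and these ranges overlapped.

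Hnrnpa2b1, the gene of a close relative of hnRNP A1 that also binds RNA for transport along cell processes, was second among the hnRNPs. It was at 1049.5, 1131, 1046 and 1022 FPKM in male cultures 1 to 4 and at 934, 949.7, 1029.9 and 957 FPKM in female cultures 1 to 4. Its difference was opposite in sign to that of Hnrnpa1, at 0.13 ± 0.06, overlapped between the sexes and was not called (limma adjusted p = 0.211). The ratio of Hnrnpa1 to Hnrnpa2b1 lay between 1.14 and 1.27 in male cultures and between 1.48 and 1.62 in female ones, so the ratios did not overlap. This ratio was chosen after its values were seen and was not tested. The order Hnrnpa1, Hnrnpa2b1, Hnrnpa3, Hnrnpk held in 8 of 8 libraries.

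Of the other hnRNP genes, Hnrnpf came closest to the threshold. It encodes a protein that binds runs of G, and was at 226, 229.5, 225 and 214 FPKM in male and at 171, 194, 208 and 167 FPKM in female cultures. The sexes did not overlap (log2 difference 0.28 ± 0.08, limma adjusted p = 0.0572). The gene was called without female 3 (limma adjusted p = 0.0166) and with quantile normalization (0.042). The call was also made with only genes of mean FPKM 5 or more (0.0453) and without both male 1 and female 3 (0.022). The other 14 of 18 alternatives left Hnrnpf uncalled, with a limma adjusted p of up to 0.162, reached when female 4 was dropped. Its relatives Hnrnph1 (297 to 318 against 310.2 to 345 FPKM) and Hnrnph2 (109 to 119.9 against 117 to 131 FPKM) had differences of the opposite sign and were not called (limma adjusted p = 0.654 and 0.399). Hnrnpll and Hnrnpr did not overlap between the sexes, with male above, and had limma adjusted p of 0.258 and 0.282. Hnrnpk, the gene of a KH-domain protein of RNA and DNA, was at 479 ± 26.2 and 478 ± 15.4 FPKM, and Hnrnpm at 178 ± 9.17 and 177 ± 4.57 FPKM. Hnrnpu, whose protein ties RNA to nuclear scaffold, was at 322 ± 11.1 and 313 ± 14.5 FPKM. Hnrnpd, the gene of the AU-rich element binding protein AUF1, was at 420.0 ± 14.8 and 374 ± 18.5 FPKM (limma adjusted p = 0.12), and its relative Hnrnpdl at 235 ± 11.1 and 235 ± 20.7 FPKM. The tested Hnrnpa3 row (ENSRNOG00000052968), Hnrnpl, Hnrnpc, Hnrnpul1 and Hnrnpul2 overlapped between the sexes, with limma adjusted p from 0.422 to 0.925. Mean levels of the 17 ran from 26.9 FPKM for Hnrnpr to 1400.3 FPKM for Hnrnpa1.

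In all 8 libraries the broadly expressed paralogues of the Ptbp, Elavl, Rbfox and Celf families exceeded the summed neuronal ones, but the neuronal paralogues were present throughout. The log2 ratio of broad to neuronal levels, with 1 FPKM added to each sum, was compared between the sexes for these 4 families. No ratio passed an exact permutation test, two-sided, with 70 possible assignments of sex, in which the smallest p is 0.0286.

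Ptbp1 was at 109, 104, 105 and 123 FPKM in male cultures 1 to 4 and at 112, 92.2, 101 and 99.9 FPKM in female cultures 1 to 4. Ptbp2, the neuronal paralogue, was at 56.5, 60.9, 57.9 and 54.5 FPKM in male and at 53.2, 56.3, 58.4 and 61.6 FPKM in female cultures. Ptbp1 was 1.62 to 2.26 times as high as Ptbp2, with a median of 1.77. The log2 ratio was 0.93 ± 0.17 in male and 0.81 ± 0.17 in female cultures (difference 0.12, exact permutation p = 0.371, adjusted 0.4 over 4 ratios). Ptbp3, first described in blood cells, was at 17.0, 24.5, 28.9 and 27.3 FPKM in male and at 29.7, 25.6, 21.5 and 25.8 FPKM in female cultures. The order Ptbp1, Ptbp2, Ptbp3 held in 8 of 8 libraries, and none of the 3 was called by limma (0 at an unadjusted p under 0.05).

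Elavl1 encodes HuR, which binds AU-rich RNA and stabilises it. It was at 46.2, 52.2, 48.6 and 56.8 FPKM in male cultures 1 to 4 and at 45.1, 44.8, 43.8 and 36.4 FPKM in female cultures 1 to 4, without overlap but not called (log2 difference 0.26 ± 0.09, limma adjusted p = 0.139). Elavl4, the gene of the neuronal protein HuD, was at 14.0, 13.3, 14.5 and 12.5 FPKM in male and at 10.8, 14.3, 11.9 and 11.7 FPKM in female cultures. Elavl3, a gene that marks new neurons, was at 7.03, 7.72, 7.68 and 8.12 FPKM in male and at 7.45, 8.22, 6.26 and 3.53 FPKM in female cultures. Elavl2 was at 3.77, 4.12, 4.18 and 5.36 FPKM in male and at 4.32, 4.30, 3.81 and 3.59 FPKM in female cultures. Each neuronal gene overlapped between the sexes. Elavl1 was 1.67 to 2.19 times the sum of the 3 neuronal genes, with log2 ratios of 0.96 ± 0.12 in male and 0.89 ± 0.12 in female cultures (exact permutation p = 0.4, adjusted 0.4). The order Elavl1, Elavl4, Elavl3 held in 8 of 8 libraries, and Elavl3 exceeded Elavl2 in 7, with a ratio of 0.983 in female 4.

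The Rbfox proteins bind GCAUG in introns beside regulated exons. Rbfox2, the broad member, was at 8.96, 14.1, 15.5 and 12.9 FPKM in male cultures 1 to 4 and at 17.1, 11.5, 12.6 and 16.7 FPKM in female cultures 1 to 4. Rbfox3, the gene of the neuronal nuclear antigen NeuN, was at 3.57, 2.95, 1.43 and 3.64 FPKM in male and at 4.14, 2.99, 3.19 and 2.85 FPKM in female cultures. Both overlapped between the sexes. Rbfox1, found in neurons and muscle, was at 2.72, 3.62, 4.08 and 2.72 FPKM in male and at 2.33, 1.86, 1.94 and 1.51 FPKM in female cultures. It did not overlap, with male above, and was not called (log2 difference 0.55 ± 0.17, limma adjusted p = 0.0903). Rbfox2 exceeded each of the others in 8 of 8 libraries, and Rbfox3 exceeded Rbfox1 in 6, all 4 female ones among them. Rbfox2 was 1.42 to 3.83 times the sum of Rbfox1 and Rbfox3. The log2 ratio was 0.93 ± 0.37 in male and 1.31 ± 0.29 in female cultures (difference -0.39, exact permutation p = 0.171, adjusted 0.343). The difference was -0.23 without male 1, -0.25 without female 4 and -0.53 without male 3, where the exact permutation p was 0.0286, the smallest possible, and 0.114 after adjustment.

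The ratio of the Celf family had the largest difference of the 4 between the sexes over all 8 libraries, but not without female 2 (-0.40, against -0.46 for Rbfox). Celf proteins bind GU-rich RNA and oppose Mbnl proteins at many muscle exons. Celf1 was at 50.3, 65.5, 68.9 and 64.2 FPKM in male cultures 1 to 4 and at 81.1, 67.4, 59.9 and 65.8 FPKM in female cultures 1 to 4. Celf2 was at 32.4, 44.8, 50.7 and 38.1 FPKM in male and at 41.5, 47.1, 38.9 and 38.5 FPKM in female cultures. Both broad genes overlapped between the sexes, and male 1 was the lowest of the 8 libraries for each. Celf3, one of the neuronal members, was at 13.4, 12.9, 12.6 and 13.7 FPKM in male and at 9.45, 8.25, 9.39 and 13.4 FPKM in female cultures, where female 4 alone reached the male range. Celf4 was at 12.3, 10.5, 7.22 and 7.36 FPKM in male and at 5.59, 2.64, 4.90 and 9.48 FPKM in female cultures. Female 4 again lay within the male range. Celf5 was at 4.91, 5.18, 5.21 and 6.68 FPKM in male and at 4.55, 3.38, 4.04 and 4.38 FPKM in female cultures, without overlap. Celf6 was at 0.648, 1.17, 1.01 and 0.698 FPKM in male and at 1.71, 2.12, 1.19 and 0.729 FPKM in female cultures, which overlapped.

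No Celf gene was called by limma, and 3 of the 6 had an unadjusted p under 0.05, beside 21.2% of all tested genes. The log2 differences were 0.37 ± 0.14 for Celf3, 0.71 ± 0.29 for Celf4 and 0.35 ± 0.14 for Celf5 (limma adjusted p = 0.144, 0.2 and 0.188). Celf3 was called without female 4 (log2 difference 0.50, limma adjusted p = 0.0412). In 17 of 18 alternatives it was not called, with a limma adjusted p of 0.288 with relative depth as a covariate. Celf1 and Celf2 together were 2.65 to 6.99 times the sum of the 4 neuronal Celf genes. Their log2 ratio was 1.38, 1.85, 2.16 and 1.81 in male cultures 1 to 4 and 2.47, 2.73, 2.28 and 1.86 in female cultures 1 to 4. The difference of -0.54 was not past the threshold (exact permutation p = 0.0571, adjusted 0.229). Of the 14 neuron markers, 6 were called towards male cultures, as given above. The 3 most abundant of them were Map2 (150.4 ± 21.6 against 169 ± 50.9 FPKM), Dcx (69.8 ± 7.23 against 80.9 ± 9.12 FPKM) and Tubb3 (63.9 ± 12.4 against 65.9 ± 2.63 FPKM), and none of these was called. The 6 that were called, named after their values were seen, were Syt1, Stmn2, Gad1, Gad2, Slc32a1 and Dlx1, with Gad1 at 19.2 ± 1.77 against 3.93 ± 1.12 FPKM. The part of neuron RNA in the Celf and Rbfox values was not tested.

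**Figure D3:**
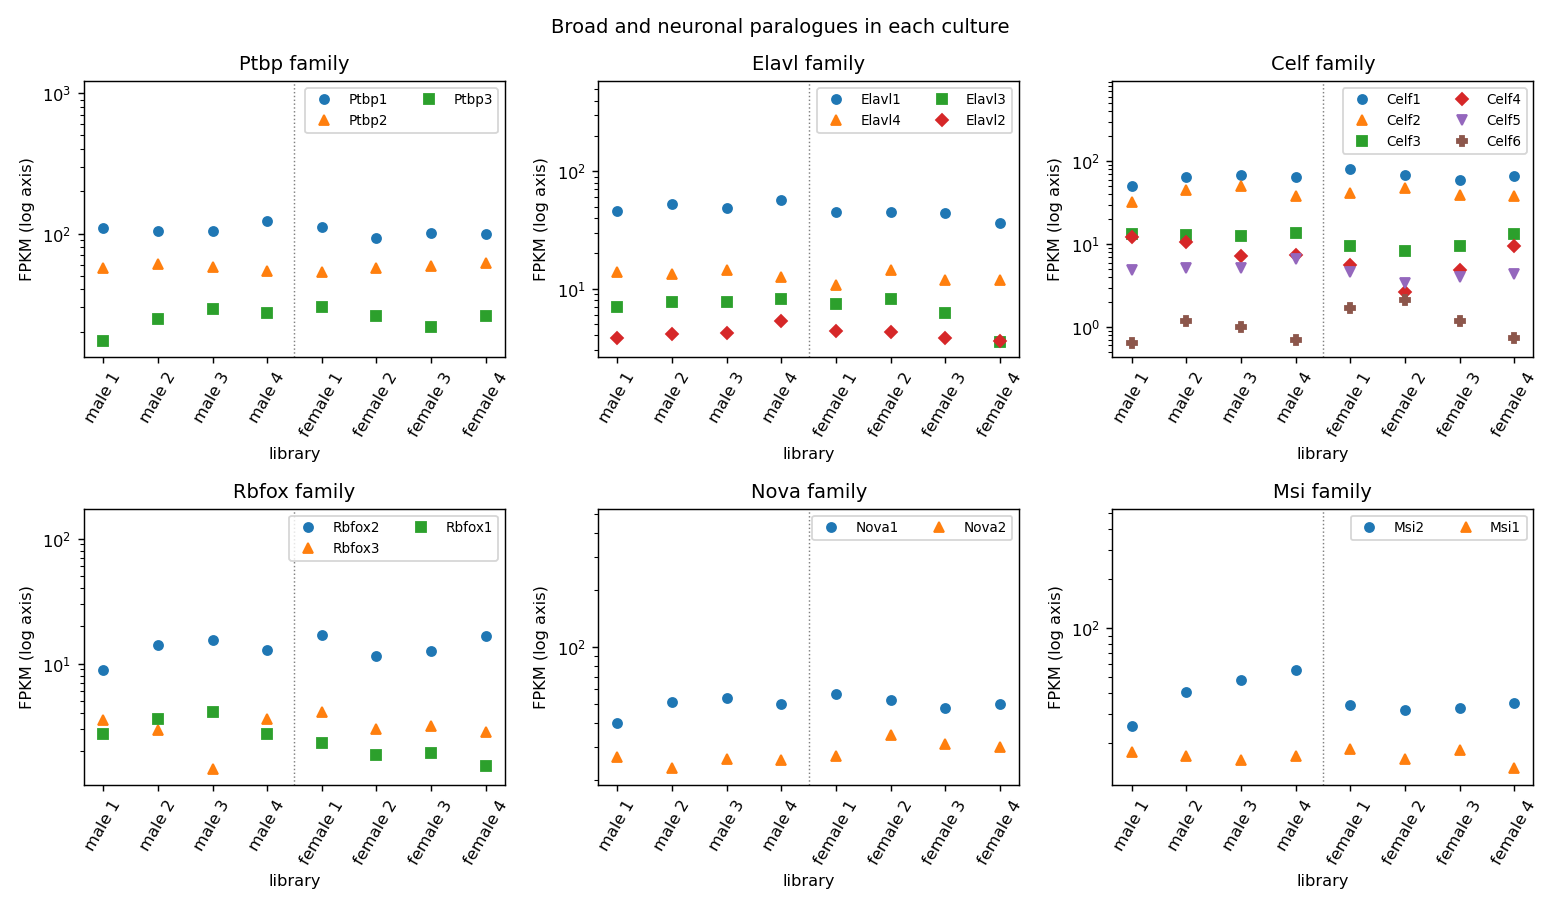
FPKM (log axis, with its own range in each panel) of every tested member of the Ptbp, Elavl, Celf, Rbfox, Nova and Msi families in each of the 8 libraries, with a dotted line between male and female. The broad paralogue lies above each neuronal one in all 8 libraries for Ptbp, Elavl and Rbfox, and Celf1 and Celf2 lie above Celf3 to Celf6.

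Nova1 and Nova2, whose proteins bind YCAY clusters and were first described in neurons, were both well above the lower neuronal genes. Nova1 was at 40.0, 51.2, 54.3 and 50.4 FPKM in male cultures 1 to 4 and at 56.9, 52.5, 48.1 and 50.4 FPKM in female cultures 1 to 4. Nova2 was at 26.4, 23.2, 25.8 and 25.5 FPKM in male and at 26.7, 34.6, 30.9 and 29.7 FPKM in female cultures. Every female value of Nova2 lay above every male one, though only narrowly for female 1, and the log2 difference of -0.26 ± 0.09 was not called (limma adjusted p = 0.133). Nova1 exceeded Nova2 in 8 of 8 libraries, by 1.52 to 2.21 times. By level Nova1, with a mean of 50.5 FPKM, stood near Ptbp2 at 57.4 FPKM and Elavl1 at 46.7 FPKM.

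Musashi proteins bind UAG motifs and are known for holding neural progenitors in an undifferentiated state. Msi2 was at 25.3, 40.9, 48.1 and 55.4 FPKM in male cultures 1 to 4 and at 33.8, 31.9, 32.6 and 35.0 FPKM in female cultures 1 to 4. The male values spread widely (42.4 ± 12.9 FPKM) and the female ones little (33.3 ± 1.38 FPKM). The log2 difference was 0.29 ± 0.20 (limma adjusted p = 0.464). Without male 1, the lowest of the 8, it was 0.51 and the gene was called as higher in male cultures (limma adjusted p = 0.0184). Without male 4, the highest, it was 0.14 (limma adjusted p = 0.735). Msi1 was at 17.5, 16.5, 15.7 and 16.5 FPKM in male and at 18.2, 15.9, 18.0 and 13.9 FPKM in female cultures, which overlapped. Msi2 exceeded Msi1 in 8 of 8 libraries, by 1.44 to 3.35 times.

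Muscleblind proteins bind YGCY motifs and set the exon choices of mature tissues. Mbnl1 was at 9.75, 18.5, 22.2 and 20.8 FPKM in male cultures 1 to 4 and at 14.9, 21.3, 12.8 and 12.9 FPKM in female cultures 1 to 4, with male 1 lowest and much overlap. Mbnl2 was at 12.4, 15.1, 14.4 and 14.9 FPKM in male and at 18.5, 17.5, 16.5 and 17.0 FPKM in female cultures. Every female value of Mbnl2 lay above every male one, and the log2 difference of -0.28 ± 0.09 was not called (limma adjusted p = 0.117). Mbnl1 exceeded Mbnl2 in 4 of 8 libraries, so these neighbours in level did not differ beyond their spread. Mbnl3 was above 0 only in male 4 and female 3, at 0.195 and 0.221 FPKM.

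Low values were spread unevenly over the libraries. Female 2 was the lowest of the 8 for 12 of the 49 members (24.5%, against 12% of all tested genes), female 4 for 11 (22.4% against 12.4%), male 1 for 10 (20.4% against 18.0%), and female 3 and male 4 for none. Those lowest in male 1 lay mostly outside the SR and hnRNP families. Male 1 held the lowest of the 8 values for 9 of 22 such genes (Celf1, Celf2, Celf6, Mbnl1, Mbnl2, Msi2, Nova1, Ptbp3 and Rbfox2) and for 1 of 27 SR and hnRNP genes (Hnrnpk). For female 2 these counts were 4 and 8, and for female 4 they were 5 and 6. The widest gaps to the mean of the other 3 male libraries were those of Mbnl1 (9.75 against 18.5 to 22.2 FPKM), Msi2 (-0.89 on the log2 scale) and Ptbp3 (-0.63). In the same 9 genes female 3 lay below the mean of the other 3 female libraries in 9 of 9. It was the lowest female library in 5. Female 3 lay below that mean for further members too, among them Celf4 and Rbfox3, where male 1 lay above the mean of the other males. The share of all tested genes with female 3 below that mean was not counted. The median deviation of male 1 from the other males was -0.19 over the 22 genes, -0.0060 over the 27 SR and hnRNP genes and -0.0026 over all tested genes. For female 3 against the other females these medians were -0.056, 0.070 and 0. Over all tested genes, too, the deviations of male 1 and female 3 from the means of their sexes correlated (r = 0.242). This was the highest r of any male and female pair, so such joint deviation was not particular to these members. These 2 libraries were the deepest, with relative depths of 1 and 0.981, and the part of depth in this pattern was not tested. The pattern was found in these values and has no test. Without male 1 and female 3, a pair chosen with earlier results of these data known, 6 members were called: Srsf7, Srsf2, Hnrnpf, Hnrnpd and Msi2 as higher in male and Hnrnpa1 as higher in female cultures. This is 12.2% of members, beside 7.83% of all tested genes in the same fit.

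**Figure D4:**
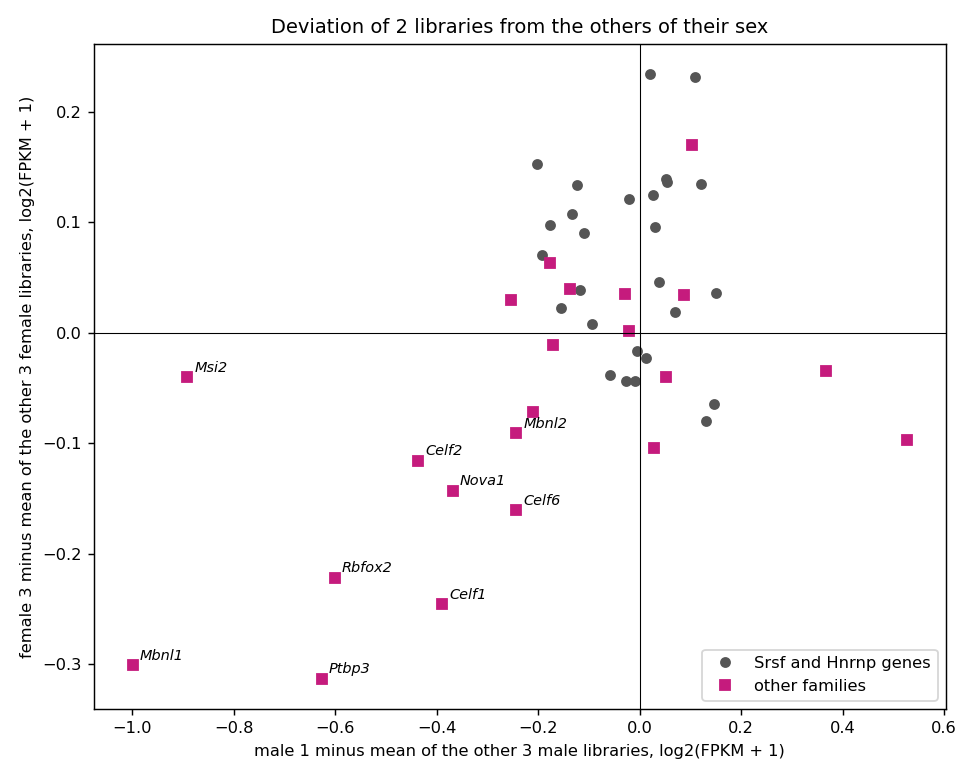
Deviation of male 1 from the mean of the other 3 male libraries (horizontal) and of female 3 from the mean of the other 3 female libraries (vertical), both on the log2(FPKM + 1) scale, with 1 point per gene. The 9 labelled genes outside the SR and hnRNP families lie at or below -0.24 on the horizontal and below 0 on the vertical axis, with Mbnl1 farthest to the left.

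Other genes of the splicing machinery were taken from lists of core components, of kinases and related SR proteins, and of further RNA-binding regulators. Their counts stand beside 6.04% called and 21.2% at an unadjusted p under 0.05 among all tested genes. Of 65 tested genes of the core spliceosome limma called 2 (3.08%), both towards male cultures, with 10 (15.4%) at an unadjusted p under 0.05 and a median log2 difference of 0.10 (all tested genes -0.0038). Both encode LSm proteins, which form a ring on the U6 snRNA and on decaying mRNA. Lsm8 (ENSRNOG00000058677), the member that holds the ring in the nucleus, was at 114, 116, 123 and 107 FPKM in male cultures 1 to 4 and at 82.2, 78.1, 95.7 and 77.4 FPKM in female cultures 1 to 4 (log2 difference 0.47 ± 0.08, limma adjusted p = 0.00802). Lsm5 (ENSRNOG00000042126) was at 77.7, 83.4, 78.5 and 81.7 FPKM in male and at 55.9, 50.3, 62.9 and 67.5 FPKM in female cultures (0.44 ± 0.09, limma adjusted p = 0.0172). Neither overlapped between the sexes. Lsm5 lost its call without male 2 or male 4 (limma adjusted p = 0.06 and 0.0512) and with relative depth as a covariate (adjusted p = 0.0535). The list's count was 1 without male 2 or male 4 and 6 without female 3.

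Of 25 tested SR kinases and SR-related genes limma called 0, with 3 (12%) at an unadjusted p under 0.05 and a median log2 difference of 0.0065. Without male 1 the count was 1, and without female 3 it was 2. Of 51 further RNA-binding regulators limma called 2 (3.92%), both towards female cultures, with 6 (11.8%) at an unadjusted p under 0.05 and a median of 0.02. Igf2bp2, the gene of a protein that binds and stabilises growth-related mRNAs, was at 9.94, 11.5, 10.6 and 11.3 FPKM in male and at 18.9, 16.4, 13.1 and 14.5 FPKM in female cultures (-0.49 ± 0.12, limma adjusted p = 0.0386). Ddx17, an RNA helicase gene, was at 207, 236, 211 and 192 FPKM in male and at 256, 241, 285 and 253 FPKM in female cultures (-0.29 ± 0.08, limma adjusted p = 0.049). Female cultures lay above male ones without overlap for both. With 1 library left out, Igf2bp2 stayed past the threshold in the case of female 3 alone, and Ddx17 in the case of male 2 alone (limma adjusted p up to 0.102 and 0.136 over all alternatives). The list's count was 0 without male 1, male 3, male 4, female 1, female 2 or female 4 and 1 without male 2.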

How the data were processed

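The authors deposited 1 FPKM value per gene and library, per the file headers. Quality control and trimming tools were FastQC and Trimmomatic, per the submitters' processing notes. Aligner, FPKM program, build, annotation and use of strand were not given in the sources used here. Since the values are no counts, the test was limma 3.58.1 (R 4.3.3) with trend and robust moderation on log2(FPKM + 1), for 11263 genes (mean FPKM of 1 or more), male minus female, Benjamini-Hochberg adjustment over all of them and a threshold of 0.05. A fold change on this scale understates the change of low genes. Sex and number came from the titles. Paralogue ratios were tested by exact permutation in Python 3.11.15. On simulated data, 200 of 11263 genes changed, limma found 32.0% of log2 changes of 0.5 and 74.2% of those of 1, with 4.11% of calls false. All 54 rows matched RefSeq symbols (GRCr8). Members and lists were chosen with earlier results of these data known. Values in every library are given for the 2 most abundant members of each family, every member of the smaller families at 1 FPKM or more, and every called member. Up to 4 called genes of each other list are named. Alternatives were other pseudocounts (0.1, 5), other filters (none, mean FPKM of 5 or more), quantile and upper quartile scaling, no robust moderation, the replicate number as a block, relative depth as a covariate, and libraries left out.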

Additional observations from a re-analysis of the deposited data

Results flagged for a closer look

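In 106 groups of 4 libraries (49 genes and 4 paralogue ratios in each sex) 7 held a library far from the other 3 of its sex, where chance gives about 1 in 20. Male 1 was high for Hnrnpl (451 FPKM against 414 to 417) and for Srsf5 (99.1 FPKM against at most 90.7 in the others). Male 3 was low for Hnrnph1 (297 FPKM against 316 to 318). Male 4 was low for Srsf2 (213 FPKM against 234 to 236) and high for Celf5 (6.68 against 4.91 to 5.21). Female 1, the shallowest library, was low for Hnrnpc (31.6 FPKM against 43.8 to 44.7), and female 4 for Elavl1 (36.4 FPKM against 43.8 to 45.1). For Elavl1, Celf5, Hnrnpl and Hnrnph1 that library lies on the side that widens the difference between the sexes. For Hnrnpc it turns the sign. The female mean of 41.1 FPKM lies below the male mean of 42.6 FPKM, but the other 3 female libraries lie above that male mean. For Srsf2 and Srsf5 it lies on the side that narrows it.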

How the results depend on the processing

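Srsf7 and Lsm8 kept direction and call in each of 18 alternatives. The 2 called members became 4 at a mean of at least 5 FPKM, 1 with the replicate number as a block and 6 without male 1 and female 3, and ranged from 1 to 4 with 1 library left out. All called genes, 680, became 397 with the block and 367 with relative depth as a covariate, and ranged from 296 to 808 with 1 library left out. The 2 core spliceosome genes became 1 with relative depth and 5 without male 1 and female 3, and ranged from 1 to 6. The count of 0 for SR kinases and related genes became 1 without male 1 and female 3 and ranged from 0 to 2. The 2 further regulators became 0 with no filter, with the block and with relative depth, and 1 with no robust moderation, and ranged from 0 to 2. At an unadjusted p under 0.05 limma had 7, 5 and 8 of these regulators with no filter, the block and relative depth, and 3 to 9 where a left-out library gave 0. For SR kinases and related genes it had 2 to 3 in each setting that gave 0. The 4 paralogue ratios kept their signs in all 12 alternatives each, which did not include other normalizations. For these ratios the block and the fit without male 1 and female 3 have too few libraries to pass the threshold. Their p-values say nothing of stability. With all libraries or with 1 left out, a single ratio at the smallest p also misses the threshold after adjustment over the 4 ratios. Same-numbered libraries did not deviate together over all tested genes (r = -0.085, 0.077, -0.064 and 0.036 for pairs 1 to 4). The numbers were therefore not taken as pairs, and not every library correlated best with its own number. The highest correlation of a male with a female library was that of male 1 with female 3 (r = 0.242). Under the block Hnrnpa1 had a limma adjusted p of 0.115, and the Celf ratio an exact sign-flip p of 0.125, the smallest that 4 pairs allow. Depth is unknown in absolute terms, and low genes such as Celf6 and Rbfox3 carry more error in shallow libraries.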
